A study of Homo sapiens with 6 samples.

Results

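The histone cluster genes are the protein-coding genes whose symbols begin HIST1H to HIST4H, and 61 of the 29889 genes in the read count table, of which 17110 were protein-coding, fit that form. Another 7 symbols of the same form were not protein-coding and were left out. The members were compared between A549 cells, a human lung adenocarcinoma line, transfected with a plasmid carrying CELF6, an RNA-binding protein (CELF6-OE), and A549 cells transfected with the empty pIRES-hrGFP-1a plasmid (Control). Each group had 3 biological replicates, cells were harvested 48 h after lipid-mediated transfection, and polyadenylated RNA was sequenced. The model is a transient transfection of a single cell line, so each library pools cells that took up the plasmid with cells that did not. CELF6 had 18646, 20789 and 11571 reads in the CELF6-OE libraries and 0 in each of the 3 Control libraries, which follows the labels.

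Histone cluster genes encode the H1 linker histone, which binds the DNA between nucleosomes, and the core histones H2A, H2B, H3 and H4, around which the DNA is wrapped. They lie close together in the genome without introns in their coding parts, and most are transcribed during S phase, when newly copied DNA needs new nucleosomes. Their main mRNA ends not in a poly(A) tail but just after a short hairpin, the stem-loop bound by SLBP, and some members are also made as longer, polyadenylated mRNAs. A library made from polyadenylated RNA therefore samples the polyadenylated form of these genes, and the stem-loop form only as far as it passed the selection.

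By cluster, 49 members were HIST1 genes on chromosome 6, 9 were HIST2 genes and 2 were HIST3 genes on chromosome 1, and 1 was the HIST4 gene on chromosome 12. By class, 5 encode H1, 16 H2A, 16 H2B, 11 H3 and 13 H4.

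The stem-loops are shown first because they define the end of the mRNA that poly(A) selection does not favour. A hairpin of 16 bases, with arms of 6 bases around a loop of 4, was searched for within 150 bases after the stop codon in GENCODE v44 on GRCh38. It was found in 54 of the 57 members that matched this annotation (94.7%), against 68 of 19645 other coding genes (0.346%). The DNA of the coding strand is given for the 8 members that were lower in CELF6-OE at an adjusted p under 0.05 and for HIST2H2AC, the abundant member beside HIST2H2BE that was not past that threshold, with the hairpin in capitals.
HIST1H2BK: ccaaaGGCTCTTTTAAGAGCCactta
HIST1H2BD: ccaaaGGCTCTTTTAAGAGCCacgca
HIST1H2BJ: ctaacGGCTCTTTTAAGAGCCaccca
HIST1H1C: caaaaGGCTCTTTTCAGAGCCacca
HIST1H2AC: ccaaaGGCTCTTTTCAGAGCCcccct
HIST3H2A: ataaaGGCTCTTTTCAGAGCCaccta
HIST2H2BE: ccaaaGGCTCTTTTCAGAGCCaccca
HIST2H4B: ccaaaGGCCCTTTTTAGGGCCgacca
HIST2H2AC: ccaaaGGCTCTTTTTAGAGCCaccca
The hairpin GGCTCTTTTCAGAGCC was carried by 31 members, 4 of them among the 8. The hairpin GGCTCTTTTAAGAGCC, found in 8 members, was that of the H2B genes HIST1H2BK, HIST1H2BD and HIST1H2BJ. Another 8 members had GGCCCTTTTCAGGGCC, none of them among the 8, and 4 had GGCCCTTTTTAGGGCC, with HIST2H4B among them.

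Reads counted on genes numbered 33748328 to 35413404 in the overexpressing libraries, fewer than the 36422617 to 37920700 in the Control libraries. All 6 epithelial markers examined had a mean above 1 FPKM (the deposited level per gene length and library depth), and their sum ran from 5040 to 5790 in the overexpressing libraries, below the Control range of 6180 to 7030. The summed FPKM of the leukocyte markers was 6.17 to 7.64 against 11.7 to 12.4 and came almost wholly from CD68 and CD14, with CD3E at 0 and PTPRC and MS4A1 each at or under a mean of 0.003333. The summed FPKM of the fibroblast markers was under 1 in every library, at 0.76 to 0.8 against 0.85 to 0.98. Of 4 markers of lung alveolar type 2 cells, only ABCA3 had a mean above 1 FPKM. The part of these differences in the results on histone genes was not tested.

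As a group, histone cluster transcripts were less abundant in CELF6-OE. Their reads numbered 4661, 4191 and 4387 in the CELF6-OE libraries and 7184, 7242 and 7143 in the Control libraries. As CPM, the read count relative to the TMM-scaled library size, the summed level was 133.9, 115.7 and 128.4 in CELF6-OE and 194, 194.8 and 195.9 in Control, so every CELF6-OE library lay below every Control library. The mean was 126 ± 9.31 CPM (SD, n = 3) in CELF6-OE and 194.9 ± 0.967 CPM (SD, n = 3) in Control, a level of 64.7% of Control, or a log2 ratio of -0.63. In bulk RNA, fewer cells with these transcripts and fewer transcripts per cell cannot be told apart. The 8 genes described next held 84.2% of all reads on members. Their summed level, chosen after the calls were known, had a log2 ratio of -0.71. That of the other 53 members was 23.7 ± 4.29 CPM in CELF6-OE and 27.2 ± 1.86 in Control, a log2 ratio of -0.20. The ranges of these 53 overlapped, with a highest CELF6-OE library of 28.4 CPM and a lowest Control library of 25.7.

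Genes were tested one by one with edgeR's quasi-likelihood test on the counts of all 15847 genes that passed the filter on low counts, and the log2 fold changes below are CELF6-OE relative to Control, with their standard errors (SE). Of the 61 members, 34 passed the filter and 27 did not. Under the rule in the methods of the study, p under 0.01 and a fold of at least 1.5, 7 of the 34 were lower (20.6%), against 5.91% of all genes tested, and 0 were higher, against 1.36%. At a Benjamini-Hochberg adjusted p under 0.05, 8 were lower (23.5%), against 11.5% of all genes, and 0 were higher, against 6.47%. At an unadjusted p under 0.05 edgeR gave 11 lower and 2 higher members, limma-voom 10 and 2, and DESeq2 9 and 0. The share of all genes at that threshold was not counted, so these numbers have no background beside them. The median log2 fold change was -0.44 over the 34 members and 0.01 over all genes tested, and 26 of the 34 values were negative (76.5%, against 48.4% of all genes). A member that passes the filter through its level in Control alone is more likely to be lower, so these shares describe the tested members and not all 61.

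**Figure D1:**
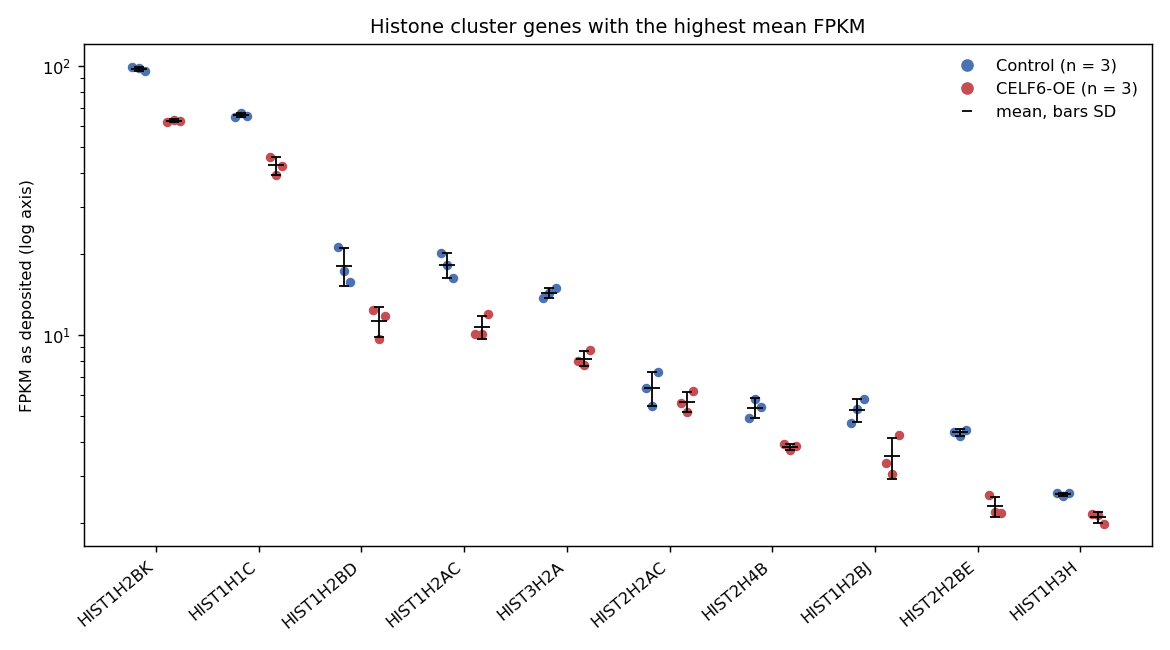
FPKM as deposited (vertical log axis) of the 10 histone cluster genes with the highest mean, for each of 3 Control (blue) and 3 CELF6-OE (red) libraries, with the mean and SD in black. The red and blue points do not overlap for the 8 genes that were lower at an adjusted p under 0.05. They do not overlap either for HIST1H3H, which was not past that threshold. The points overlap for HIST2H2AC, whose read counts were 75 to 85 against 84 to 112. The share of all genes without overlap was not counted.

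Among H2B genes, 4 of 12 tested members were lower. HIST1H2BK, the member with the highest mean level (80.1 FPKM over the 6 libraries), had 855, 893 and 843 reads in CELF6-OE and 1430, 1472 and 1439 in Control. Its replicates were tight in both groups, and its log2 fold change was -0.67 (SE 0.066, adjusted p = 6.28e-05). HIST2H2BE, a member of the chromosome 1 cluster with a mean of 3.32 FPKM, had 208, 183 and 174 reads against 374, 375 and 397. It had the largest fold change of the 8, at -0.95 on the log2 scale (SE 0.11, adjusted p = 0.000192). HIST1H2BD had 392, 312 and 362 reads against 703, 592 and 539, with a log2 fold change of -0.71 (SE 0.13, adjusted p = 0.0031). HIST1H2BJ was the least precise of these H2B genes, with 115, 107 and 142 reads against 170, 198 and 216. Its log2 fold change was -0.61 (SE 0.16, adjusted p = 0.0232), and without CELF6-OE replicate 1, CELF6-OE replicate 2 or Control replicate 2 its adjusted p was 0.0892, 0.105 and 0.0858. The other 8 tested H2B members did not pass the threshold, with log2 fold changes from -0.65 to 0.23.

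The H2A genes HIST1H2AC and HIST3H2A were also lower. HIST1H2AC had a mean of 14.5 FPKM, with 606, 620 and 696 reads in CELF6-OE and 1269, 1186 and 1060 in Control. The lowest Control library was well above the highest CELF6-OE library, and the log2 fold change was -0.80 (SE 0.094, adjusted p = 0.000215). HIST3H2A, which lies on chromosome 1 apart from the HIST2 genes, had a mean of 11.3 FPKM and 261, 256 and 277 reads against 465, 507 and 530. It had a log2 fold change of -0.85 (SE 0.10, adjusted p = 0.000251). Of the other 6 tested H2A members none passed the threshold. HIST2H2AC, the most abundant of these at 6.01 FPKM, had 79, 75 and 85 reads against 94, 84 and 112, overlapping ranges, and a log2 fold change of -0.20 (SE 0.17, adjusted p = 0.425).

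Of the 3 tested H1 linker histone genes, HIST1H1C alone was lower. It had the second highest mean level, 54.2 FPKM, and 1073, 937 and 966 reads in CELF6-OE against 1578, 1698 and 1655 in Control. The groups were well apart, with a log2 fold change of -0.65 (SE 0.079, adjusted p = 0.000251). HIST1H1E and HIST1H1D, each under 1.5 FPKM, had log2 fold changes of -0.14 (SE 0.34) and 0.00 (SE 0.35), neither past the threshold. The H1 class as a whole therefore followed HIST1H1C: its summed level had a log2 ratio of -0.63 with that gene and -0.10 without it.

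H3 and H4 genes were low in these libraries and gave a single call. HIST2H4B, an H4 gene with a mean of 4.60 FPKM, had 161, 156 and 155 reads in CELF6-OE and 210, 259 and 240 in Control. Its log2 fold change of -0.51 (SE 0.12, adjusted p = 0.015) was under 1.5-fold, and its adjusted p was 0.0506, 0.069 and 0.0927 without CELF6-OE replicate 1, CELF6-OE replicate 2 or Control replicate 2. HIST2H4A, its near-identical copy, had 1 read in all 6 libraries, so reads of this pair cannot be assigned to either copy with certainty. HIST1H3H, the most abundant H3 member at 2.33 FPKM, had 97, 98 and 87 reads against 121, 123 and 126. These ranges did not overlap, but its log2 fold change of -0.32 (SE 0.13) had an adjusted p of 0.122. HIST1H4C, an H4 gene singled out after its values were seen, went the other way at low counts, with 38, 21 and 31 reads against 18, 21 and 19, a log2 fold change of 0.71 (SE 0.29, adjusted p = 0.113).

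**Figure D2:**
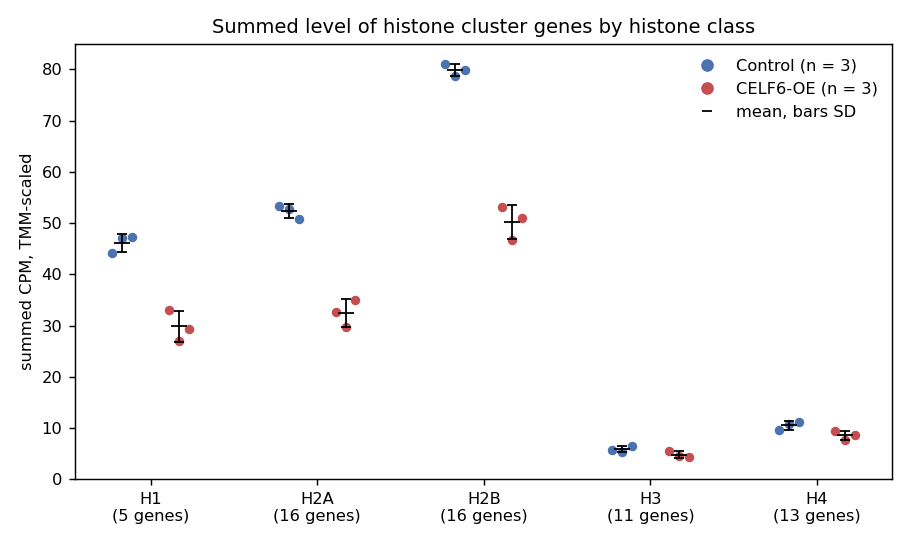
Summed level by histone class in CPM (vertical axis from 0) for each of 3 Control (blue) and 3 CELF6-OE (red) libraries, with the mean and SD in black. The groups are well apart for H1, H2A and H2B, whose CELF6-OE means were 64.6%, 62.0% and 62.9% of Control. They are close together for H3 and H4, at 82.7% and 81.3%, and overlap for H3 alone.

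Summed by class, H2B genes gave the most histone reads and fell from 79.9 ± 1.19 CPM in Control to 50.2 ± 3.32 CPM in CELF6-OE (SD, n = 3 each). The H2A sum was 52.4 ± 1.32 CPM in Control and 32.5 ± 2.65 in CELF6-OE, and the H1 sum was 46.2 ± 1.80 and 29.9 ± 3.08. The CELF6-OE and Control libraries did not overlap in any of these sums. The H3 sum was 5.88 ± 0.601 CPM in Control and 4.86 ± 0.602 in CELF6-OE, and its ranges overlapped, with a highest CELF6-OE library of 5.54 and a lowest Control library of 5.41. The H4 sum was 10.6 ± 0.816 CPM in Control and 8.58 ± 0.845 in CELF6-OE. Its ranges lay close without overlap, with a highest CELF6-OE library of 9.42 and a lowest Control library of 9.64. Without HIST2H4B the H4 log2 ratio was -0.02, against -0.30 with it. Without HIST1H2AC and HIST3H2A the H2A log2 ratio was -0.09, against -0.69 with them. The ranges of the H2A sum then overlapped, with a highest CELF6-OE library of 7.73 CPM and a lowest Control library of 6.59. Without the 4 H2B genes that were lower the H2B log2 ratio was -0.36, against -0.67 with them.

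**Figure D3:**
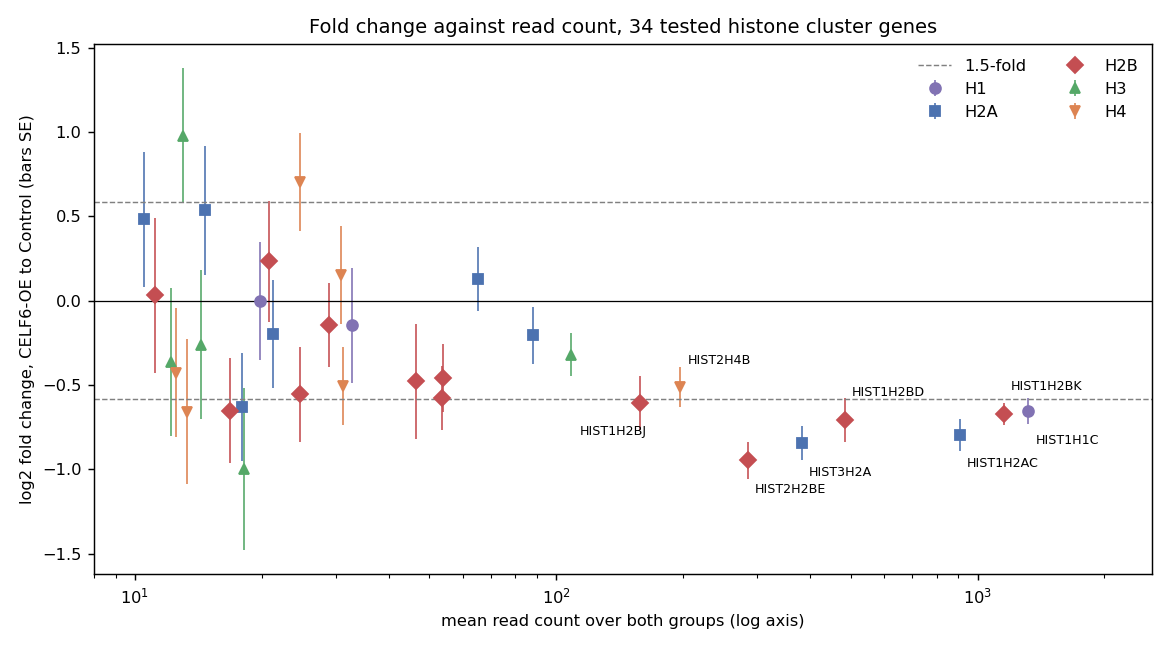
Log2 fold change (vertical axis, CELF6-OE to Control, bars SE) against mean read count (horizontal log axis) for the 34 tested members, coloured by histone class, with dashed lines at 1.5-fold. The 8 named genes lie at the right, with mean counts above 100 and SE from 0.066 to 0.16, and the genes at the left scatter on both sides of 0 with SE up to 0.48.

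The members without a call were mostly members with few reads. Of the 26 that were tested and not called, 17 had a mean under 30 reads and their SE ran from 0.13 to 0.48, against 0.066 to 0.16 for the 8 genes. Their log2 fold changes were negative in 18 and positive in 8, from -0.998 to 0.979. The lowest adjusted p among them was 0.0584, for the H2B gene HIST1H2BN, which had 40, 36 and 49 reads against 65, 66 and 66, and passed the threshold without CELF6-OE replicate 3 (adjusted p = 0.0468). The 27 members below the filter all had a mean under 10 reads and none reached more than 20 reads in any library. Of the 61, 7 had 3 reads or fewer in every library, 4 had none in CELF6-OE and 3 had none in Control. Together the 27 had 141, 84 and 88 reads in CELF6-OE and 107, 111 and 131 in Control. No difference was detectable at this depth in the sum of these genes, since the ranges overlap.

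Members whose gene continues beyond the stem-loop in GENCODE v44 or RefSeq, not always in both, included 7 of the 8 genes. In GENCODE v44 or RefSeq on GRCh38, 16 members extend more than 60 bases past the hairpin and 38 end at it. Of the first kind 15 were tested and 7 were lower at an adjusted p under 0.05, with a median log2 fold change of -0.51 over the 15. Of the second kind 15 were also tested and only HIST1H1C was lower, with a median of -0.14. The tested members of the first kind had more reads, with a median of 109 reads a library against 21.3, so extension and read depth cannot be told apart in these counts. Examples of the first kind are HIST2H2BE, whose gene runs 1729 bases past the hairpin at chr1:149884459-149886682 on the minus strand, and HIST1H2BD, which runs 12747 bases past it at chr6:26158122-26171349 on the plus strand with a second exon. The sources differ for other members of the first kind. HIST1H2BK runs 8073 bases past its hairpin in RefSeq and 5 in GENCODE. Its counts and FPKM imply a gene model of about 397 bases, too short for that extension. HIST1H2AC, HIST3H2A and HIST1H2BJ run 14432, 22592 and 6424 bases past theirs in GENCODE, against 6, 5 and 5 in RefSeq. HIST1H1C ends 4 bases after its hairpin, at chr6:26055740-26056470 on the minus strand. Counts and FPKM also differ from the annotation the other way. HIST1H2AG, of the second kind, ends 5 bases past its hairpin, but its implied gene model is about 2350 bases (log2 fold change 0.13, SE 0.19). The grouping by extension therefore rests on annotation that the counts may not have used.

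A list of 7 cluster genes known to be made also as polyadenylated mRNA, which the study did not define and which was drawn up with earlier results of these data known, held 6 of the 8 genes. HIST1H1C, HIST1H2AC, HIST1H2BD, HIST1H2BJ, HIST1H2BK and HIST2H2BE were lower at an adjusted p under 0.05, and HIST1H2BC had 42, 48 and 42 reads against 77, 63 and 51 without passing it (log2 fold change -0.46, SE 0.20, adjusted p = 0.135). The 7 genes held 75.1% of member reads. Their summed level was 91.5 ± 5.13 CPM in CELF6-OE and 149.5 ± 2.26 in Control, a log2 ratio of -0.71. The 54 other members had 34.5 ± 4.64 CPM in CELF6-OE and 45.4 ± 3.20 in Control, a log2 ratio of -0.40. Among those, HIST3H2A and HIST2H4B were the members past the threshold.

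Many histone genes stand head to head, with a short intergenic stretch serving as promoter for genes on opposite strands, so the neighbours can be read side by side. All pairs of members starting within 1000 bases of each other on opposite strands were taken, which gave 12 pairs, 8 of them with both genes tested. In 5 pairs, with starts 219 to 251 bases apart, a single gene was lower at an adjusted p under 0.05, and in 0 pairs both were. In each of the 5, the gene without a call had fewer reads and a larger SE than its partner. A split between partners and a difference in read depth therefore cannot be told apart in these calls. HIST2H2BE (-0.95) stands beside HIST2H2AC (-0.20). HIST3H2A (-0.85) stands beside the H2B gene HIST3H2BB, at 26, 31 and 23 reads against 36, 33 and 24 (log2 fold change -0.14, SE 0.25). HIST1H2BJ (-0.61) stands beside the H2A gene HIST1H2AG, which had 73, 62 and 64 reads in CELF6-OE and 69, 72 and 51 in Control (log2 fold change 0.13, SE 0.19). HIST1H2BK (-0.67) stands beside HIST1H2AH, at 17, 9 and 10 reads against 7, 12 and 8 (log2 fold change 0.48, SE 0.40), and HIST1H2AC (-0.80) beside HIST1H2BC (-0.46). The ratio of HIST2H2BE to HIST2H2AC reads was 2.63, 2.44 and 2.05 in CELF6-OE and 3.98, 4.46 and 3.54 in Control, with no overlap. That of HIST1H2BJ to HIST1H2AG was 1.58, 1.73 and 2.22 against 2.46, 2.75 and 4.24, also without overlap. The ratio of HIST3H2A to HIST3H2BB, 10, 8.26 and 12 against 12.9, 15.4 and 22.1, and that of HIST1H2BK to HIST1H2AH, 50.3, 99.2 and 84.3 against 204, 123 and 180, did not overlap either. The ratio of HIST1H2BC to HIST1H2AC was 0.0693, 0.0774 and 0.0603 in CELF6-OE and 0.0607, 0.0531 and 0.0481 in Control, and these ranges overlapped. These ratios were set out after the single-gene results were known and were not tested.

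**Figure D4:**
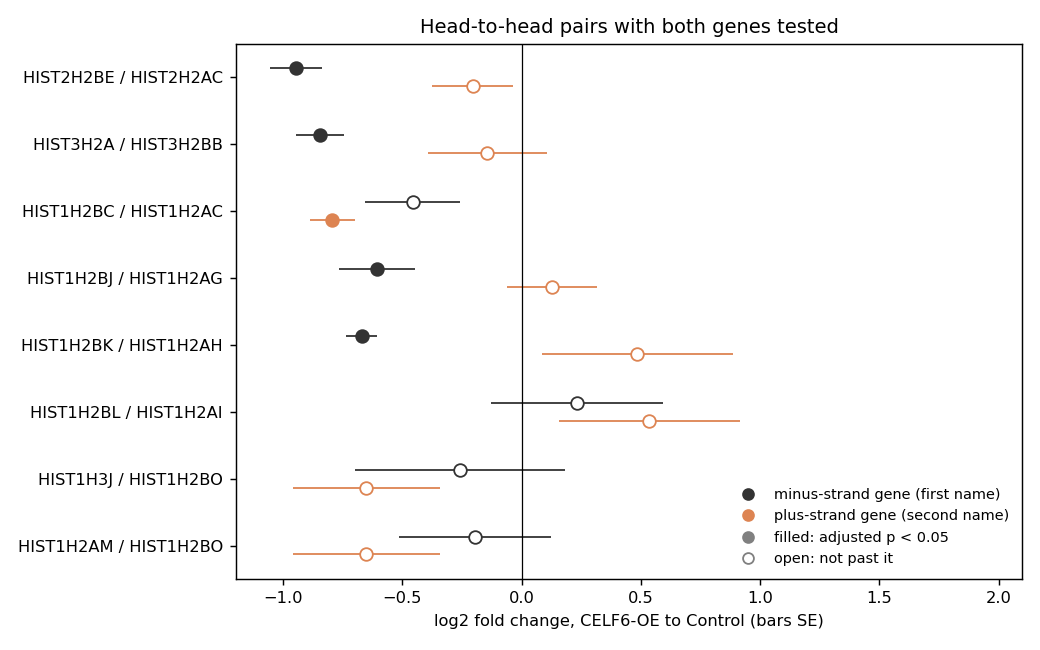
Log2 fold change (horizontal axis, CELF6-OE to Control, bars SE) of both genes in the 8 head-to-head pairs with both tested, the minus-strand gene in black and the plus-strand gene in orange, with filled points past an adjusted p of 0.05. A single point is filled in each of 5 pairs, and it lies to the left of its partner in all of them. All calls on members were lower, so the calls themselves favour that side. The open point of these pairs is the gene with fewer reads.

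The promoter shared by HIST2H2BE and HIST2H2AC is given because HIST2H2BE had the largest fold change of the 8 genes and its partner was not past the threshold. It is the RefSeq window of HIST2H2BE from 250 bases before to 50 after its start, at chr1:149886633-149886932 on the minus strand of GRCh38.p14, and the start of HIST2H2AC lies 236 bases from that of HIST2H2BE. Capitals mark the octamer ATTTGCAT and the TATA motif TATAAA on either strand.
HIST2H2BE promoter: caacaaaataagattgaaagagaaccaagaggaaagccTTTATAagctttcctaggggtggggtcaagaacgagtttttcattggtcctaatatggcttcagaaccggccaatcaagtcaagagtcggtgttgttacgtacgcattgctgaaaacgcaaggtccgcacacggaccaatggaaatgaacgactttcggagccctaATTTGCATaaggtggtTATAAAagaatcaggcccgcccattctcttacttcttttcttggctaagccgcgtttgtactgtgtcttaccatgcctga
The octamer was in 23 of the 52 member promoters with a RefSeq window (44.2%), against 1.8% of all 27305 windows of that length, searched on both strands. It was in 10 of 13 H2A and 12 of 16 H2B promoters, 1 of 7 H3 promoters and 0 of 5 H1 and 11 H4 promoters. TATAAA was in 61.5% of member promoters against 12% of all, and CCAAT in 82.7% against 35.7%, the latter in 2 of 11 H4 promoters. Of the 8 genes that were lower, 4 had the octamer, 5 TATAAA and 7 CCAAT. HIST2H4B had none of these letters in its window.

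The genes for variant histones, most of which are transcribed outside S phase as well and as ordinary polyadenylated mRNAs, moved in both directions. Of 11 tested variant genes, 5 were higher and 2 lower at an adjusted p under 0.05. Over all genes tested, 6.47% were higher and 11.5% lower. The median log2 fold change of the variant genes was 0.20. H1F0, the linker histone H1.0, had 7176, 7763 and 8104 reads against 12190, 12301 and 12054, a log2 fold change of -0.59 (SE 0.066, adjusted p = 0.000155), about the size seen for HIST1H1C. H2AFJ, an H2A variant, was also lower, at -0.24 (SE 0.075, adjusted p = 0.0461), a call lost with upper quartile scaling (adjusted p = 0.0707), with the replicate block (adjusted p = 0.0758) and in 5 of the 6 fits that left out a library, all but the fit without Control replicate 1 (adjusted p up to 0.19). H2AFZ, which encodes H2A.Z, was higher at 0.28 (SE 0.061, adjusted p = 0.00965), and H2AFV, its paralogue, at 0.30 (SE 0.061, adjusted p = 0.00713). CENPA, the centromeric H3, was higher at 0.32 (SE 0.078, adjusted p = 0.0167). H3F3A and H3F3B encode the same H3.3 protein. H3F3A was higher at 0.31 (SE 0.089, adjusted p = 0.032), and H3F3B had a log2 fold change of -0.08 (SE 0.057, adjusted p = 0.379). The calls of H2AFZ, CENPA and H3F3A were lost in 2, 2 and 4 of the fits that left out a library, CELF6-OE replicate 1 among them each time (largest adjusted p = 0.0606, 0.0949 and 0.134), and those of H1F0 and H2AFV in none of the 15 other fits.

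**Figure D5:**
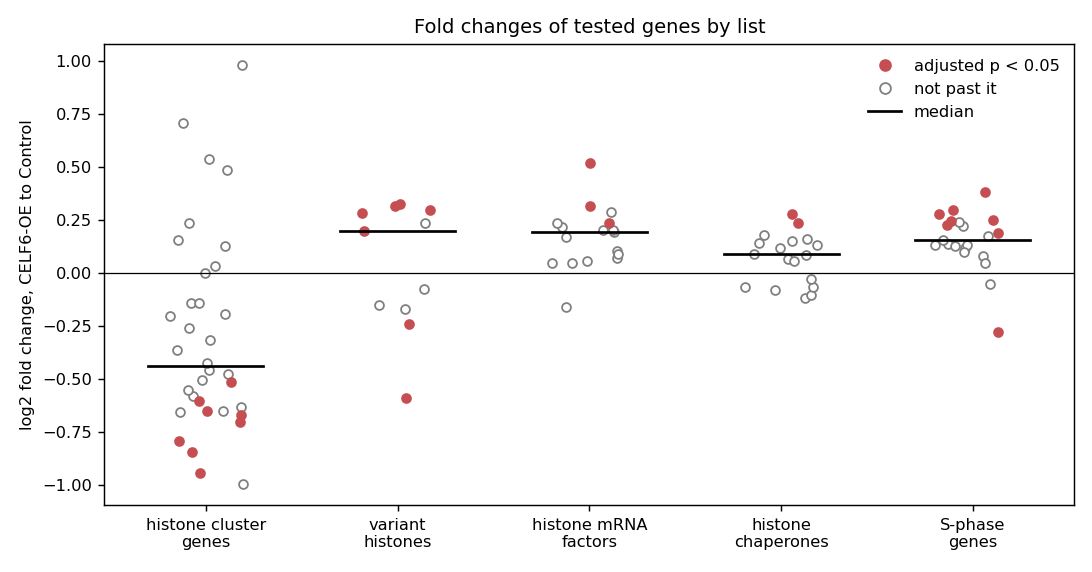
Log2 fold change (vertical axis, CELF6-OE to Control) of each tested gene in the histone cluster and in lists of variant histones, histone mRNA factors, histone chaperones and S-phase genes, red where the adjusted p was under 0.05, with the median as a line and points spread sideways for legibility. The median was -0.44 for the cluster genes and 0.20, 0.19, 0.09 and 0.16 for the lists, in that order.

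Genes for histone mRNA factors and for histone chaperones had small changes or none past the threshold, and all of those past it were higher. Of 17 genes for histone mRNA transcription and processing, 3 were higher and 0 lower at an adjusted p under 0.05 (edgeR). For these and for the chaperones below, the shares over all genes tested were 6.47% higher and 11.5% lower. SLBP, which binds the stem-loop, had 2293, 2296 and 2127 reads against 2141, 2288 and 2296, overlapping ranges, and a log2 fold change of 0.07 (SE 0.064, adjusted p = 0.472). NPAT, the activator of histone gene transcription, had 184, 205 and 143 reads against 207, 186 and 148 (log2 fold change 0.05, SE 0.16, adjusted p = 0.861). The 3 that were higher were SSRP1, a subunit of the FACT complex, at 0.32 (SE 0.061, adjusted p = 0.00508), and the cyclin E genes CCNE2, at 0.52 (SE 0.14, adjusted p = 0.0255), and CCNE1, at 0.23 (SE 0.070, adjusted p = 0.0404). SSRP1 kept its call in all 15 other fits. Both cyclin E calls were lost with the replicate block (adjusted p = 0.0501 for CCNE2 and 0.0932 for CCNE1) and without CELF6-OE replicate 1, CELF6-OE replicate 2 or Control replicate 2 (adjusted p up to 0.112 and 0.19), and that of CCNE1 also without CELF6-OE replicate 3, with DESeq2 and without the filter. Of 18 histone chaperone genes, SET, at 0.28 (SE 0.060, adjusted p = 0.00968), and NPM1, at 0.23 (SE 0.064, adjusted p = 0.0286), were higher and 0 were lower. SET lost its call without CELF6-OE replicate 2 or Control replicate 2 (adjusted p = 0.0525 and 0.0607). NPM1 lost it with the replicate block (adjusted p = 0.0961) and without any of the CELF6-OE replicates or Control replicate 2 (adjusted p up to 0.105).

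S-phase genes, listed because cluster genes are transcribed in S phase, mostly had positive log2 fold changes, though most did not pass the threshold. Of 21, 7 were higher and 1 was lower at an adjusted p under 0.05 and 13 passed in neither direction. The shares over all genes tested were 6.47% higher and 11.5% lower. The median log2 fold change of the 21 was 0.16, and 2 of their values were negative, against 48.4% of all genes. MCM6, a subunit of the replicative helicase, was higher at 0.29 (SE 0.066, adjusted p = 0.0116), and RRM2, the small subunit of ribonucleotide reductase, at 0.25 (SE 0.058, adjusted p = 0.0143). PCNA, the sliding clamp of the replication fork, was the gene that was lower, at -0.28 (SE 0.068, adjusted p = 0.0166). MCM6, RRM2 and PCNA each lost their calls without CELF6-OE replicate 1, CELF6-OE replicate 2 or Control replicate 2, with adjusted p of up to 0.0568, 0.104 and 0.0901, and RRM2 also with the replicate block (adjusted p = 0.0544). None of the 8 reached 1.5-fold. The number of S-phase genes that were higher ranged from 1 to 11 over the other fits and subsets of libraries, with 3 under the replicate block and 1 without CELF6-OE replicate 1, CELF6-OE replicate 2 or Control replicate 2.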

How the data were processed

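The members and all gene lists were chosen with earlier results of these data known. The authors trimmed reads with FASTX-Toolkit, aligned them with TopHat2 to GRCh38, allowing up to 4 mismatches, and kept uniquely placed reads, which lowers counts of near-identical histone genes. They deposited read counts per gene and FPKM values. How reads were counted, on which strand and with which gene models is not given in the sources used here, and 26 members, among them HIST1H2AC, HIST1H2BD and HIST3H2A, overlap another gene in GENCODE v44, so their reads may be shared. From the counts, edgeR 4.0.16 in R 4.3.3 (filterByExpr, TMM, quasi-likelihood test, Benjamini-Hochberg adjustment over 15847 genes) compared CELF6-OE with Control without a block. FPKM values were used to rank levels between genes. Named members were those called under either rule, the 10 with the highest mean FPKM and any whose call changed with the scaling. For the lists, SLBP, NPAT, H3F3A, H3F3B, H2AFZ, H1F0 and the 3 genes with the smallest p were named, and CENPA, H2AFJ and the members outside these rules were added after their values were seen. The values of 2 genes of these lists are not reported here. The test was checked on simulated counts. Alternatives were DESeq2 1.42.0, limma-voom (limma 3.58.1), other scalings and filters, a replicate block and leaving out each library. Of the 61 members, 57 matched GENCODE v44 and 52 a RefSeq promoter.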

Additional observations from a re-analysis of the deposited data

How the results depend on the processing

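The count of members lower at p under 0.01 and 1.5-fold was 6 to 9 over all other scalings, filters, tools and subsets of libraries, and 0 when a fold of at least 2 was asked for. The count higher by that rule was 0 to 1 when a library was left out, with HIST1H4C as the single gene without CELF6-OE replicate 2 (log2 fold change 0.92) and an H3 member of under 25 reads a library without Control replicate 2, and 0 elsewhere. At an adjusted p under 0.05 the lower count was 6 to 9 and the higher count 0 in all. With replicate number as a block, 7 members were lower by the first rule and 8 by the second, as without it. Deviations of same-numbered libraries correlated at -0.0113, -0.0212 and -0.0722, so no pairing by number showed in the counts. Whether the replicates were prepared in matched batches is not stated, and these correlations cannot settle it. HIST1H1C, HIST1H2BK, HIST1H2AC, HIST1H2BD, HIST3H2A and HIST2H2BE stayed past the adjusted threshold in all 15 alternative fits, with a largest adjusted p of 0.0172, for HIST1H2BD. HIST1H2BJ and HIST2H4B lost it without CELF6-OE replicate 1, CELF6-OE replicate 2 or Control replicate 2, which leaves fewer samples. HIST1H2BJ fell short of 1.5-fold with library size alone (log2 fold change -0.57). It also did so without CELF6-OE replicate 1 (-0.57), CELF6-OE replicate 2 (-0.505) or Control replicate 3 (-0.516). The H1 log2 ratio was -0.096 without HIST1H1C. The H2A ratio was -0.56 from summed FPKM, which weights genes by length, and -0.54 without HIST1H2AC. Without both HIST1H2AC and HIST3H2A the H2A ratio was -0.091. The H4 ratio was -0.15 from summed FPKM and -0.019 without HIST2H4B. No value changed sign among those called. H2AFZ and H3F3A lost their calls in 2 and 4 of the fits that left out a library, and counts over the lists moved most in such fits, with library size alone and with the block: processing factors higher 1 to 6, chaperones higher 0 to 4, variant genes lower 1 to 4 and higher 1 to 6. No member with a mean under 100 reads a library passed the adjusted threshold in the fit to all libraries with the filter.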
